A study of Mus musculus with 2 samples.

Results

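Mir140 and Mir455 are 2 microRNA (miRNA) genes known from cartilage, out of 1973 gene identifiers counted in newborn mouse thymus. They were chosen by name for their known expression in chondrocytes and related mesenchyme, not by their values. Earlier results of these data were known, however, when they and the lists below were chosen. Both were among the 294 genes with at least 10 counts in each library, which are called detected below. The small RNA libraries came from the 2 thymus lobes of each of 2 pups, aged 0 days, from the same pregnancy of strain B6NCrl mice. Replicate 1 was pup 2 and replicate 2 was pup 3. The labels name no treatment or altered allele and record no sex, and both pups carry the same donor identifier, so p-values between the libraries measure only how far 2 libraries of littermates differed.

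Chondrocytes are the cells of cartilage, and the transcription factor SOX9 directs their gene expression. Mir140 is transcribed with its host gene Wwp2, which encodes a ubiquitin ligase, and in mice loss of Mir140 leads to mild dwarfism. Mir455 lies in Col27a1, which encodes a fibrillar collagen of cartilage, and it is also known from brown fat differentiation. The thymus is not a cartilage tissue, but its capsule and septa hold mesenchyme around the developing T cells and the epithelium.

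Both hairpins lay in introns of their host genes, on the host's strand. Mir140 (ENSMUSG00000065439.1, chr8:107551244-107551313, plus strand, GRCm38) was in intron 16 of the 24-exon principal transcript of Wwp2, with 1108 bases to the exon before it and 963 to the exon after it. It also overlapped the single exon of a Wwp2 transcript annotated as a retained intron. Mir455 (ENSMUSG00000070102.1, chr4:63256851-63256932, plus strand, GRCm38) was in intron 10 of the 61-exon principal transcript of Col27a1, 2109 bases after an exon and 127 bases before the next. Neither host contained another annotated miRNA gene.

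The mature sequences are shown because a miRNA finds its targets mainly through its seed. They are RefSeq's for GRCm38.p6, written 5′ to 3′ with the seed (bases 2 to 8) in capitals. Mir140 and Mir455 each give an arm from the 5′ side and from the 3′ side of the hairpin (miR-140-5p, miR-140-3p, miR-455-5p and miR-455-3p).
miR-140-3p: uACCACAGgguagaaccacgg
miR-455-5p: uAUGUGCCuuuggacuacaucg
miR-455-3p: gCAGUCCAcgggcauauacac
The 3 seeds differ from each other. The G and C content was 57.1% in miR-140-3p, 45.5% in miR-455-5p and 57.1% in miR-455-3p, against a median of 52.2% over 1738 mature sequences in the table.

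The next line shows the whole Mir140 hairpin with miR-140-3p in capitals, so that its place in the precursor can be seen.
Mir140 hairpin: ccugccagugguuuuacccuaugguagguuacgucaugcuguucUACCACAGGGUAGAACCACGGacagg
The capitals run from base 45 to base 65 of 70. The predicted minimum free energy fold of the hairpin was 1 stem of 30 base pairs at -39.1 kcal/mol, in which 20 of the 21 bases of miR-140-3p were paired.

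The seed search covered the 3 arms shown. The sequences used held no entry for miR-140-5p, so its seed was not searched. Among the mature sequences searched, 1 other shared the seed of miR-140-3p, 1 other that of miR-455-5p and none that of miR-455-3p. For comparison, 68.0% of the 1738 had a seed found in no other gene.
miR-497b: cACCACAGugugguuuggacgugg
miR-5129-3p: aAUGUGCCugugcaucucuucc
These are printed because they carry the same seed (capitals) as miR-140-3p and miR-455-5p. Mir497b, whose miR-497b has the seed of miR-140-3p, had 2 counts on its own strand in replicate 1 and 0 in replicate 2. On the strand opposite to Mir497b, where Mir497 is annotated, there were 836 and 379 counts. Mir5129 had 0 counts on both strands in both libraries. Among the sequences searched, gene-strand counts for these 3 seeds thus came almost wholly from Mir140 and Mir455, although each gene's count joins both arms and does not say which arm was read.

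The libraries held 2734133 and 1289151 counts on the strand of miRNA genes in replicates 1 and 2, so replicate 1 was 2.12 times as deep. Levels are given as counts per 1000000 of these counts (CPM). A gene at 0 counts may have had up to 3, which equal 1.10 and 2.33 CPM. Reads that mapped to several places, 56.3% and 57.5% of all reads, were not assigned to genes. No 20-base stretch of Mir455 occurred in another of the 141767 GENCODE transcripts, on either strand, and for Mir140 they occurred only in transcripts of its host Wwp2. Of 6 listed miRNA genes of thymocytes, the 5 found in the tables summed to 117748 and 109457 CPM. They were led by Mir17 and by Mir181a-1, which shares 20 bases with another locus. No other tissue was measured, so this sum does not test thymus identity. In whole tissue, fewer cells of a type and less RNA per cell cannot be told apart.

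Mir140 was an abundant miRNA of the thymus, and Mir455 was of middle rank. Mir140 had 21160 counts in replicate 1 and 10980 in replicate 2, which are 7739 CPM (exact Poisson 95% interval 7635 to 7844) and 8517 CPM (8359 to 8678). Its mean was 8128 CPM ± 550.2 (SD, n = 2), 34.0 times the median of the detected genes. Replicate 2 was the higher of the libraries, and the counting intervals did not overlap.

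Mir455 had 1414 counts in replicate 1 and 629 in replicate 2, which are 517 CPM (491 to 545) and 488 CPM (451 to 528). Replicate 1 was the higher here, but the counting intervals overlapped. The mean was 503 CPM ± 20.7 (SD, n = 2), 2.10 times the median of the detected genes. These intervals cover counting error only, since PCR reads without molecular identifiers are not independent molecules.

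Both genes were read from the gene strand alone. Each had 0 counts on the opposite strand in both libraries, which allows an opposite-strand share of up to 0.0142% and 0.0273% for Mir140 and up to 0.212% and 0.477% for Mir455. This was common, as 272 of the 294 detected genes (92.5%) had no opposite-strand count in either library.

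By mean level Mir140 ranked 34 and Mir455 ranked 123 of the 294 detected genes. Mir140 held rank 34 in replicate 1 and 33 in replicate 2, and Mir455 held 122 and 128. The range of Mir140 over the libraries overlapped that of 7 other genes, and 30 genes lay wholly above it and 256 wholly below. The range of Mir455 overlapped that of 9 genes, with 119 wholly above and 165 wholly below. Ranks within these overlaps are not separated by the spread between libraries. Of the 294 detected genes, 65 share 20 bases with another miRNA gene and may be undercounted, while Mir140 and Mir455 do not. Their ranks, and their levels relative to the median, may therefore be too high.

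**Figure D1:**
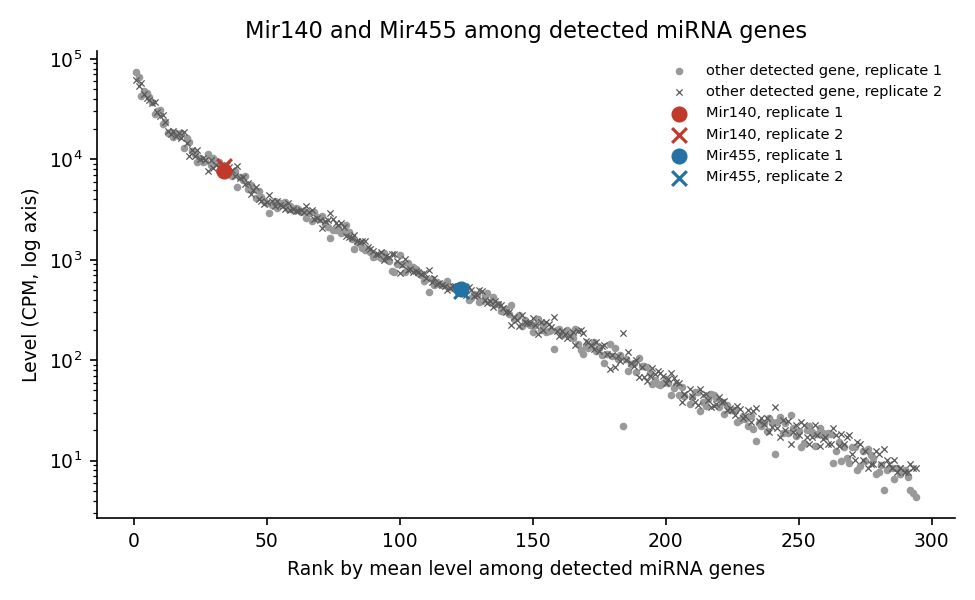
Level in CPM (log axis) of the 294 detected miRNA genes against their rank by mean level, with circles for replicate 1 and crosses for replicate 2. Mir140 (red) sits at rank 34 and Mir455 (blue) at rank 123, and for both the 2 libraries lie close together.

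The genes beside them in this order were close in level. Directly above Mir140 stood Mir181c with 8623 and 8821 CPM, which did not overlap it, and directly below stood Mir22 with 7368 and 8873 CPM, which did. Directly above Mir455 stood Mir34c with 535 and 527 CPM, without overlap, and directly below stood Mir340 with 474 and 514 CPM, with overlap. Likeness was measured as the Euclidean distance in log2(CPM + 1) over the 2 libraries, where a small distance mostly means a like level. The 3 genes nearest to Mir140 were Mir22 (distance 0.0922), Mir92-1 (0.117) and Mir181c (0.164). The 3 nearest to Mir455 were Mir34c (0.120), Mir674 (0.130) and Mir320 (0.133).

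Mir140 exceeded Mir455 in both libraries. The ratio of their counts was 15.0 in replicate 1 (exact 95% interval 14.2 to 15.8) and 17.5 in replicate 2 (16.1 to 18.9), a mean of 16.2 ± 1.76 (SD, n = 2). Small RNA reads span the mature molecule, so the counts were not divided by length; per base of the annotated hairpins, which are 70 and 82 bases long, the mean ratio was 19.0. Of the counts of the pair, Mir140 supplied 93.7% in replicate 1 and 94.6% in replicate 2. Together the genes took 0.826% (95% Wilson interval 0.815 to 0.836) and 0.901% (0.884 to 0.917) of the gene-strand counts, a mean of 0.863% ± 0.0529.

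The ratio of Mir140 to Mir455 was lower in replicate 1 than in replicate 2, by more than counting error. The log2 ratio of these ratios was -0.22 (95% interval -0.36 to -0.083), with a two-sided Fisher's exact test p = 0.00173 in the only test of this kind, and it needs no scaling between libraries. The spread between libraries that edgeR estimated over all detected genes came from the same 2 libraries. With it added to the counting error, the interval widened to -1.10 to 0.66 and included 0, so the call was lost. Because that spread holds the difference compared, the lost call does not show that the ratios were alike.

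Between the littermates both genes differed little. For Mir140 the log2 ratio of replicate 1 over replicate 2, scaled by edgeR's TMM factors, was -0.072 (exact 95% interval -0.11 to -0.038). The exact binomial test over 294 genes called it lower in replicate 1 (Benjamini-Hochberg adjusted p = 7.75e-05). For Mir455 the log2 ratio was 0.15 (0.014 to 0.29) and did not pass (adjusted exact binomial p = 0.0686). That 1 of the pair was called stands against a background of 43.5% of all 294 genes called (128 genes), 23.5% higher and 20.1% lower in replicate 1. With TMM scaling 69 genes were called higher and 59 lower in replicate 1. Scaled to total counts the split was 52 and 72, and the log2 ratios of Mir140 and Mir455 were -0.14 and 0.084.

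In size, 81.3% of the tested genes had a larger absolute log2 ratio than Mir140 and 61.6% a larger one than Mir455, and the median absolute value was 0.21. In CPM, which are scaled to total counts and not by TMM, the SD was 6.77% of the mean for Mir140 and 4.12% for Mir455. The biological coefficient of variation over all detected genes was 15.4%. It uses TMM scaling and leaves out counting error, so it is not a like measure. The binomial test compares 2 libraries by counting error. The biological coefficient of variation was estimated from these same 2 libraries taken as 1 group. A test with that spread can therefore call few genes and does not decide whether either gene differed. A negative binomial test with that common spread called neither gene (edgeR adjusted p = 1.0 for both) and 1 gene of 294 (0.34%), with 15 passing at an unadjusted p under 0.05.

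**Figure D2:**
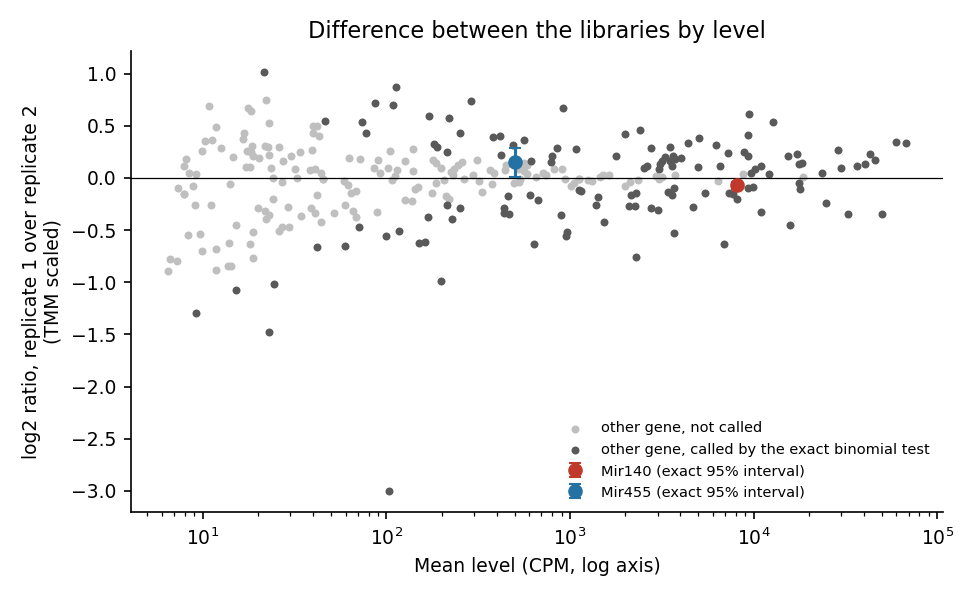
The log2 ratio of replicate 1 over replicate 2 (TMM scaled) against mean level in CPM (log axis) for 294 detected genes, dark where the exact binomial test called them; error bars are exact 95% intervals from counting error. Mir140 (red, -0.072) and Mir455 (blue, 0.15) lie near 0, within the scatter of genes of like level.

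As counted, other miRNAs described in cartilage or limb mesenchyme ranged from 0 counts to the level of Mir92-1, the only one near Mir140. Several, among them Mir26a-1 (14.7 CPM on average), share 20 bases with another locus, so their levels and the sum below may be too low. Of 12 listed genes, 11 had rows in the tables under the listed symbol (all but Mir146a), 9 were detected, and the 11 summed to 13180 CPM in replicate 1 and 14882 in replicate 2. Mir675, made from the H19 transcript and linked to collagen II expression in human chondrocytes, had 24.1 and 34.9 CPM. Mir193b had 8.78 and 14.7 CPM. Its genomic neighbour Mir365-1 and the second copy Mir365-2 had 0 counts, but they share 20 bases with another locus, so their reads can be lost as multimapping. Mir140 thus had 321 and 244 times the counts of Mir675, and Mir455 had 21.4 and 14.0 times.

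The rest of that list included miRNAs that many cell types express. Mir92-1 had 7157 and 8329 CPM and Mir27b 3475 and 3877 CPM, both uncertain for shared sequence, and Mir148a had 1601 and 1648 CPM. Mir92-1 alone averaged 7743 CPM, where the whole list summed to 14031 CPM on average. Of the 9 tested genes, 1 (Mir222) was higher in replicate 1, 3 (Mir27b, Mir92-1 and Mir30b) were lower and 5 did not pass the exact binomial test. These 4 of 9 calls are close to the 43.5% called among all tested genes and say nothing particular about the list. The median log2 ratio of the list was -0.092, against 0.030 over all tested genes. Only RNA of miRNA size was measured, so the cartilage label was checked against other miRNAs and not against cartilage mRNAs.

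Compared with the listed markers of mesenchyme and smooth muscle, Mir140 lay below Mir143 and above Mir145a and Mir214. It was also counted above Mir199a-1, Mir199a-2 and Mir199b, but these share 20 bases with another locus and may be undercounted. Mir143, the main smooth muscle miRNA, had 42989 and 57301 CPM, Mir145a, transcribed with it, had 1901 and 2100 CPM, and Mir214, from the Dnm3os transcript of developing mesenchyme, had 771 and 1153 CPM. Mir140 was 0.180 and 0.149 times Mir143, 10.03 and 7.38 times Mir214, and 4.07 and 4.06 times Mir145a. Its ratio to Mir145a was thus nearly equal in the libraries, while those to Mir143 and Mir214 were higher in replicate 1, and no test was run on these ratios. Mir455 was 0.0120 and 0.00851 times Mir143, 0.272 and 0.232 times Mir145a, and 0.670 and 0.423 times Mir214.

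All 6 mesenchyme markers had rows and 5 were tested. The list summed to 45733 CPM in replicate 1 and 60634 in replicate 2. The exact binomial test called Mir143 and Mir214 lower in replicate 1 and none higher, 2 of 5 where 43.5% of all tested genes were called and 20.1% were lower. The list's median log2 ratio was -0.26, against 0.030 over all tested genes. Calls among markers of other cells went both ways. Mir126a of endothelium (log2 ratio -0.34) and Mir208b of muscle (-3.01) were called lower in replicate 1. Of 5 tested thymocyte genes, 4 were called higher in replicate 1 and 1 lower, and of 6 epithelium genes 1 was higher and 3 were lower. Over all tested genes, 23.5% were called higher. Mir199a-1, Mir199a-2 and Mir199b, with 1.87, 11.1 and 62.2 CPM on average, share 20 bases with another locus. Mir140 was on the same side as the median of the mesenchyme list and Mir455 on the other. The part of mesenchyme content in the members' levels was not tested.

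**Figure D3:**
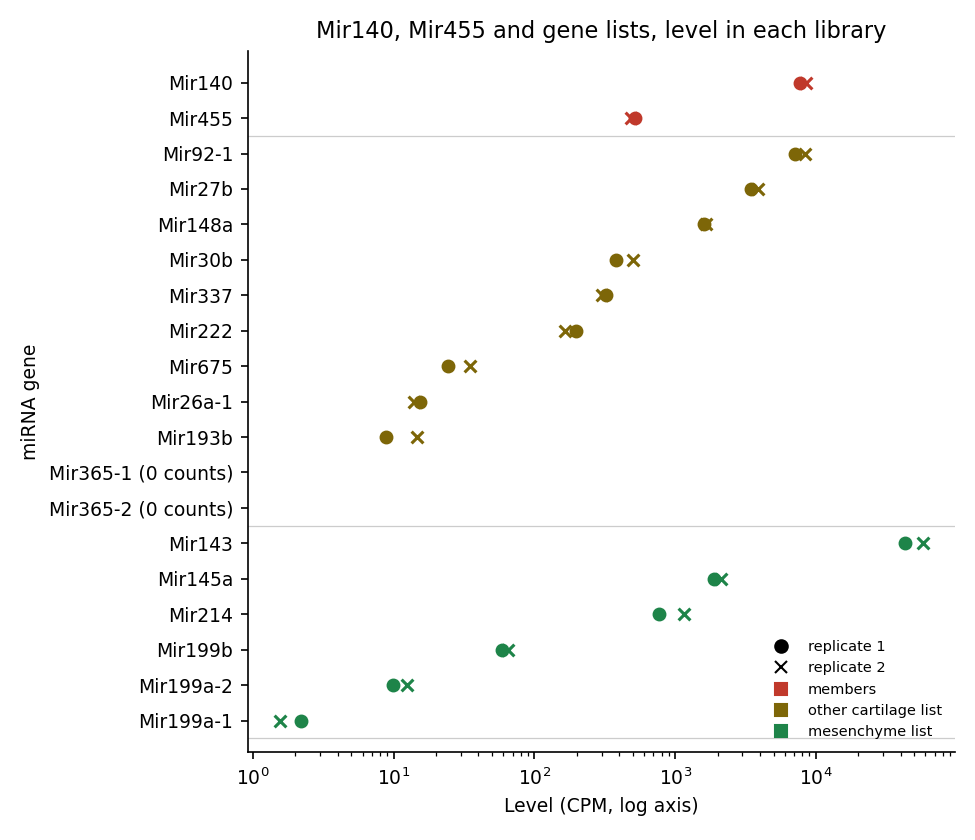
Level in CPM (log axis) in replicate 1 (circles) and replicate 2 (crosses) of Mir140 and Mir455 (red), 11 other miRNA genes of the cartilage list (brown) and 6 mesenchyme markers (green). Mir140 lies near Mir92-1, below Mir143 and above Mir145a, and the 2 Mir365 genes had 0 counts.

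Markers of the other cells of the organ set the scale. Mir205, which marks stratified epithelium and the epithelium of the thymus, had 9346 and 10405 CPM, so Mir140 stood at 0.828 and 0.819 times its level. Mir126a, a miRNA of endothelium, had 28049 and 37298 CPM, of which Mir140 had 0.276 and 0.228 times. Against Mir181a-1 of thymocytes, at 37220 and 36043 CPM but uncertain for shared sequence, Mir140 had 0.208 and 0.236 times the level and Mir455 0.0139 and 0.0135 times. The epithelium list summed to 36005 and 37225 CPM.

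Because Mir455 is also known from brown fat, its level was set beside other miRNAs of that tissue. Beside Mir193b and Mir365-1, given above, the list holds only Mir455 itself, and Mir455 had 58.9 and 33.1 times the counts of Mir193b. As counted, the muscle and red cell sums were small. Striated muscle summed to 467 and 627 CPM, of which Mir206 of skeletal muscle had 445 and 442 CPM. Mir208b, from the cardiac myosin gene Myh7, had 21.9 and 185 CPM. Mir208b was called lower in replicate 1 (log2 ratio -3.01, adjusted exact binomial p = 1.2e-60). Mir451a and Mir144 of erythroid cells summed to 231 and 168 CPM. In the muscle list Mir1a-1, Mir133a-1 and Mir133a-2 were at 0 counts in both libraries, and each shares sequence with another locus. Mir1a-2 had no row under the listed symbol. The muscle sum may therefore be too low.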

How the data were processed

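MicroRNA sequencing of total RNA (fragments under 30 nucleotides, per the labels) gave 1 library per pup. The tables deposited by the authors give unnormalized read counts for each miRNA gene, from reads mapped to mm10 and counted over GENCODE M4, per the text files deposited with them. No aligner or counter is given in the sources used here. From the values, the first count column sums both strands, the second is the gene strand (used here) and the third the opposite strand. Unmapped (10.6% and 9.17% of reads), multimapping and unassigned (2.99% and 2.57%) totals were left out of library sizes. Of 1973 identifiers, 1894 matched GENCODE M21, which gave symbols and positions; the other 79 had 0 counts.

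Genes that reached 10 counts in each library were compared by an exact binomial test, two-sided, with TMM effective library sizes (edgeR 4.0.16, R 4.3.3, scipy 1.17.1, Python 3.11.15), Benjamini-Hochberg adjusted over 294 genes at 0.05. The script was tested on counts simulated with counting error only, where it called 3 of 192 unchanged genes and 32 of 34 genes changed 2-fold. That simulation held no other spread between libraries, so it cannot show how the test behaves with such spread. Folding used ViennaRNA 2.7.2. DESeq2 1.42.0 size factors were an alternative. The text names both genes, their 3 nearest detected genes, the genes next in rank, genes sharing a seed, and members of the lists. The genes and lists were chosen with earlier results of these data known.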

Additional observations from a re-analysis of the deposited data

How the results depend on the processing

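The levels depend on the denominator. Per 1000000 of all reads in the table, Mir140 averaged 2116 and Mir455 131, and the genes' summed share was 0.225%. Over unstranded counts, in which Mir142b was the most abundant gene, the values were 6952 CPM, 430 CPM and 0.738%. The main denominator leaves out the 468355 and 215626 opposite-strand counts of replicates 1 and 2. Without the most abundant gene of the gene strand, Mirlet7g, the values were 8717 CPM, 539 CPM and 0.926%. The cartilage list summed to 14031 CPM on average and to 12001 CPM over unstranded counts. With either library left out, Mir140 was 7739 to 8517 CPM, Mir455 488 to 517 CPM, their share 0.826% to 0.901% and their ratio 15.0 to 17.5. Per hairpin base the ratio was 19.0. Mir140 stayed lower in replicate 1 by the exact binomial test under 6 alternatives of scaling, strand and filter (log2 ratio -0.14 to -0.054) and lost its call under the negative binomial test (-0.072, adjusted p = 1.0), which called 1 gene where the binomial test called 128, with 15 and 142 passing unadjusted. Mir455 passed under none of 7 alternatives (log2 ratio 0.084 to 0.17). The ratio of Mir140 to Mir455 between libraries (log2 -0.22) lost its call once the common dispersion was added. That dispersion, also used by the negative binomial test, came from the same 2 libraries, so the lost calls decide nothing. Leaving out a library ends the comparison of libraries. No paired analysis was possible because the libraries form 1 group. With 1 library per pup, pup, dissection and library preparation cannot be told apart.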
